A study of Mus musculus with 16 samples.

Results

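The cells described here are those the authors named neutrophils in single-cell RNA sequencing of mouse neuroblastoma grafts, 557 of 20376 cells. They were taken by the authors' cell type name alone. Because some of them carried basophil RNA, results are given without, and in the main cases also with, the cells that had UMIs (sequence tags by which copies of a captured RNA molecule are counted once) of at least 2 of the 5 basophil genes Gata2, Ms4a2, Mcpt8, Cpa3 and Cd200r3. These are called basophil-marker cells.

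The grafts had been grown under the skin of male C57BL/6 mice, 8 weeks old, from NB9464D, a mouse neuroblastoma cell line. The mice were wild type (WT) or knockouts (KO), which the labels name CD200R-/- among the characteristics and CD200-/- in the growth protocol. CD200, a membrane protein of many cells, binds CD200R (gene Cd200r1), through which myeloid cells are held in check. On day 28 tumors had been digested with collagenase, and the cells loaded were CD45+ leukocytes sorted from them (WT sorted, KO sorted) or total tumor cells (WT tumor, KO tumor). The labels list 4 samples in each of these 4 groups, but cells carry only the name of their group, so each group was 1 library. No spread between animals could be measured, no test was made, and genotype cannot be told apart from differences between animals, grafts or preparations.

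Neutrophils are short-lived granulocytes that enter tissue through the chemokine receptor Cxcr2, depend on the growth factor receptor Csf3r for their production, and fill their cytoplasm with S100a8 and S100a9, the subunits of calprotectin. Once in tissue they can themselves release the Cxcr2 ligands Cxcl2 and Cxcl3, which bring in further neutrophils, and the inflammatory cytokine interleukin 1 beta. In tumors, which are often short of oxygen, myeloid cells can raise glycolysis genes through the transcription factor HIF-1. Basophils are a separate and rare granulocyte lineage that depends on Gata2, carries the high-affinity IgE receptor and makes interleukin 4.

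The upstream regions of 3 genes that the results turn on are shown first, the neighboring chemokine genes Cxcl2 and Cxcl3 and the glycolysis gene Ldha, which encodes lactate dehydrogenase A. Each is the 250 bases before the gene's first listed start in RefSeq on GRCm38.p6, plus strand, at chr5:90903649-90903898, chr5:90785851-90786100 and chr7:46845554-46845803. Capitals mark the NF-kB motif (GGG, any 3 bases, then TTCC) in the chemokine genes and the hypoxia response motif ACGTG in Ldha, searched on both strands, with overlapping matches joined.
Cxcl2: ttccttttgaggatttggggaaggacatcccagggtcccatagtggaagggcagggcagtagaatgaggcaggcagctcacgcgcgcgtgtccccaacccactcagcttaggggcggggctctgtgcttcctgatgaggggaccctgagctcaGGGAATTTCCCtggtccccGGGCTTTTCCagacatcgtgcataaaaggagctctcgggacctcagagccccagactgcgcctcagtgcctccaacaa
Cxcl3: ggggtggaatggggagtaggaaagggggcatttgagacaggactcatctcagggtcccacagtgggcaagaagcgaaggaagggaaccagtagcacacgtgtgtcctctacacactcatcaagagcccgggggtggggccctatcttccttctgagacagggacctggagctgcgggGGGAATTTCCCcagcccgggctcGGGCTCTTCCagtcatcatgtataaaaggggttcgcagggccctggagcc
Ldha: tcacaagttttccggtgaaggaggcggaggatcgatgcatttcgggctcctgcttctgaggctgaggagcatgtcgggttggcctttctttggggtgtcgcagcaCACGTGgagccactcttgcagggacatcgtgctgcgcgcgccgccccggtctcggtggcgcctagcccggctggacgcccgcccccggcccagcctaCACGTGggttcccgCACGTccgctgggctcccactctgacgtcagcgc
Cxcl2 and Cxcl3 each held 2 marked stretches, the first the same in both, GGGAATTTCCC, starting 97 and 73 bases before the start. Of 32851 such windows of all genes in the table, 4.65% held the NF-kB motif and 16.6% the hypoxia motif. Of the chemokine genes compared below, 3 of the 6 found in the table held the NF-kB motif, and of the hypoxia and glycolysis genes 13 of 19, or 14 of their 27 windows, held the hypoxia motif. A match describes the letters and shows no binding.

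Neutrophil-named cells were 432 of 5219 cells in WT sorted (8.28%, 95% interval 7.54 to 9.06) and 87 of 4305 in KO sorted (2.02%, 1.62 to 2.49). The tumor libraries held 17 of 4955 in WT and 21 of 5897 in KO. Without the basophil-marker cells the sorted shares were 8.22% and 1.60%. Of the cells with a leukocyte name, the whole class made up 10.5% in WT sorted, 2.52% in KO sorted, 5.30% in WT tumor and 1.70% in KO tumor. The class was thus a smaller share in KO of the sorted cells and, in both preparations, of the leukocytes, but of all tumor cells it was 0.343% in WT and 0.356% in KO. Of tumor cells with at least 1000 UMIs it was 0.353% in WT and 0.163% in KO. Intervals here and below are exact 95% intervals, Clopper-Pearson for shares, Poisson for levels and conditional binomial for ratios, and cover counting error only.

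Most of the class bore out its name. UMIs of at least 2 of the 4 neutrophil markers S100a8, S100a9, Csf3r and Cxcr2 were found in 407 of 429 WT sorted cells and 65 of 69 KO sorted cells that were not basophil-marker cells. The tumor libraries had 16 of 17 such cells in WT and 15 of 18 in KO. Among neutrophils, M1 and M2 macrophages and B cells, the sorted types compared, neutrophils had the highest level of each of the 4 markers in both genotypes. For S100a8 the next type, M2 macrophages, reached 233 CPM in WT and 9.16 CPM in KO, where CPM is the UMIs of a gene scaled to a total of 1e+06. Markers of primary granules, which are made in the bone marrow, were near 0, with 2.96 CPM over the 4 genes found in WT sorted and 0 in KO sorted cells.

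The basophil-marker cells, chosen by the 5 genes, also differed from the other cells in neutrophil markers. They were 18 of 87 cells in KO sorted (20.7%, 12.7 to 30.7), 3 of 432 in WT sorted (0.694%, 0.143 to 2.02), 3 of 21 in KO tumor and 0 of 17 in WT tumor. With cells thinned to 500 UMIs the KO sorted share was 10.3%. By the rule, the other cells could have at most 1 of the 5 genes. In the sorted libraries the other 69 KO cells had 0 of them, and of the other 429 WT cells 428 had none and 1 had 1. None of the 18 KO and 3 WT basophil-marker cells had 2 neutrophil markers, and none of the 18 had a UMI of S100a8, S100a9 or Csf3r. For those cells the authors' name goes against the markers. In KO tumor cells the line was less sharp, since 1 of the 18 cells kept there had 1 of the 5 genes, and Gata2 had 4 UMIs and Cyp11a1 8.

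**Figure D1:**
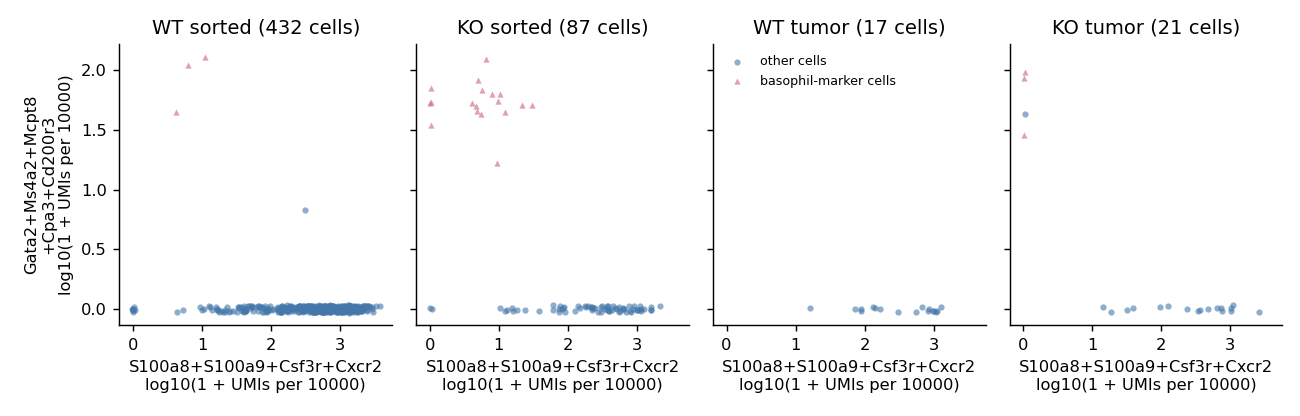
Each point is 1 neutrophil-named cell, with the summed UMIs of 4 neutrophil markers (x axis) and of the 5 basophil genes (y axis), both as log10(1 + UMIs per 10000 UMIs of the cell) with a small jitter, in the 4 libraries. The 18 KO sorted basophil-marker cells (triangles) lie apart from the other 69 cells, and Cxcr2 is the neutrophil marker they hold. The 5 genes of the y axis chose the triangles, so their height on it follows from that choice.

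Within the 18 KO sorted basophil-marker cells, Gata2 had 203 UMIs in 18 cells, Cd200r3 65 in 17, Ms4a2, the beta chain of the IgE receptor, 22 in 11, the protease Mcpt8 13 in 6 and carboxypeptidase Cpa3 13 in 7. These 5 genes chose the cells. Of genes not used to choose them, Fcer1a, the alpha chain of the IgE receptor, had 15 UMIs in 11 cells and Il4 16 in 9 cells. Il6 had 187 UMIs in 13 cells, the steroid enzyme gene Cyp11a1 118 in 18 and the interleukin 18 receptor chain Il18r1 62 in 18. In the other neutrophil-named cells of both sorted libraries, Il4, Il6, Cyp11a1 and Fcer1a had 0 UMIs. The 7 mast cell genes found in the matrix had 0 UMIs in the 18 cells, as did Il13.

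The same cells carried high levels of 2 chemokine genes that neutrophils also express. Ccl4 was at 25834 CPM (24551 to 27167) in them and at 7883 CPM (7401 to 8389) in the other KO sorted cells of the class. Ccl3 was at 17535 CPM against 5934 CPM. Cxcl2 went the other way, at 442 CPM (289 to 648) against 20821 CPM, and Cxcl3 had 0 UMIs against 2092 CPM. Osm, the cytokine oncostatin M, was at 8623 CPM against 3019 CPM, and Csf1, the macrophage growth factor, at 2296 CPM against 357 CPM. For Cxcr2 the intervals overlapped, at 680 CPM (486 to 926) and 911 CPM (752 to 1094). Fcer1a, Il4, Ccl3, Osm, Csf1 and, below, Cxcr4 and the glycolysis genes given in pathway order were named after their values were seen.

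Counting these cells as neutrophils changed what KO sorted and WT sorted cells appeared to differ in. For genes, a log2 ratio KO over WT was taken relative to the median tested gene, since by total UMIs that median was itself at 0.53 without and 0.58 with basophil-marker cells. A gene was tested if at least 10 UMIs were expected in the shallower library at the mean of both CPMs. Some genes were thus tested only through the library in which they were high. A difference of at least 2-fold was counted. Without basophil-marker cells 198 of 1470 genes were higher (13.5%) and 272 lower (18.5%) in KO, 32% in either direction. With them 320 of 2041 were higher (15.7%) and 381 lower (18.7%), 34.3% in either direction. Of the genes counted as higher, 117 were shared, 59.1% of the first list and 36.6% of the second, and of those counted as lower 218 were shared, 80.1% and 57.2%. Scaled by total UMIs alone, the first comparison gave 456 genes higher and 122 lower, so 78.9% instead of 42.1% of the counted genes were higher.

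The 10 largest ratios with all cells included were those of Il6 (7.85), Lif, Cdh1, Cyp11a1, Itga6, Gata2, Tulp4, Vopp1, Il18r1 and Gm26802. In KO cells that were not basophil-marker cells each of these had 0 to 3 UMIs. Gata2 was among the genes that chose the basophil-marker cells, so its low count in the other cells follows in part from that choice. Some genes also turned in direction. Ccl9 had a ratio of 2.31 with all cells and -0.46 without, and Klf6, an immediate early transcription factor, 0.37 and -0.75. Il1b had -0.14 with all cells and 0.44 without. For the NF-kB feedback gene Nfkbiz the ratios were 1.51 and 0.15, and for Fosb 3.47 and 0.99. Values from here on leave the basophil-marker cells out unless stated otherwise.

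That left 429 WT sorted cells with 1352851 UMIs and 69 KO sorted cells with 126216 UMIs, at a median of 2591 and 1734 UMIs per cell. A count of 3 UMIs, used as the floor, was 2.22 CPM in WT and 23.8 CPM in KO. Mitochondrial RNA was 8.50% and 6.35% of UMIs and ribosomal protein RNA 4.18% and 3.67%. The 17 WT tumor and 18 KO tumor cells had 36446 and 23388 UMIs, of which 34.2% and 25.4% were mitochondrial, and serve only for comparison of the most abundant genes. No doublets were called. Markers of monocytes and macrophages summed to 708 CPM in WT and 452 CPM in KO, and 39 WT cells and 1 KO cell had at least 3 of the 10 genes. All 10 of these markers had a UMI in both genotypes. Of 8 dendritic cell markers, 4 had a UMI in WT and 1 in KO. Markers of T and NK cells summed to 101 and 71.3 CPM, of B cells to 168 and 372 CPM, and of graft and stroma cells to 40.7 and 0 CPM. Removing cells with at least 3 genes of another cell type left 386 WT and 66 KO cells. In those the ratio was -2.03 for Cxcl2, 0.46 for Il1b and -1.51 for the median of the hypoxia and glycolysis genes still tested.

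The receptor gene named in the characteristics of the KO was near the detection limit in WT neutrophils. Cd200r1 (chromosome 16, 44765736 to 44794978, plus strand, mm10) had 10 UMIs in WT sorted cells, 7.39 CPM (3.54 to 13.6), and 0 in KO sorted and in both tumor libraries. Since 3 UMIs are 23.8 CPM in KO sorted cells, the loss could not be seen in neutrophils at this depth and no fold is given. In deeper cell types of the same libraries it could: Cd200r1 was at 77.8 CPM in WT and 0 in KO sorted M1 macrophages and at 48.6 CPM and 0 in M2 macrophages. In neutrophils Cd200 and Cd200r2 had 0 UMIs in both sorted libraries and Cd200r4 5 and 0.

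Calprotectin RNA was lower and the receptors Csf3r and Cxcr2 higher in KO sorted cells. S100a8 (chromosome 3, 90668978 to 90670035) was at 31712 CPM in WT sorted, 21828 in KO sorted, 18603 in WT tumor and 20694 in KO tumor cells. The sorted ratio was -1.07 (-1.13 to -1.01), and the tumor ratio was nearer 0, at -0.31 (-0.48 to -0.14). S100a9, beside it on the same chromosome, was at 42755, 23119, 24228 and 26381 CPM, with ratios of -1.42 (-1.47 to -1.36) and -0.34. By total UMIs the sorted ratios were -0.54 for S100a8 and -0.89 for S100a9. That of S100a8 was under 2-fold in 5 of 12 settings, among them cells thinned to 500 UMIs (-0.79) and without its highest cell in each library (-0.90). By plain CPM both genes were thus higher in KO than in WT tumor cells, while WT sorted cells stood highest of the 4. Csf3r was at 704, 2012, 659 and 1112 CPM in the same order, a sorted ratio of 0.98 (0.78 to 1.18), and Cxcr2 at 483, 911, 165 and 470 CPM, a ratio of 0.39 (0.09 to 0.67). For both receptors KO was the higher of each pair of libraries, but the tumor values rest on 6 to 26 UMIs, and both tumor intervals included 0. The other 2 chosen members of the calprotectin and cystatin list were S100a6, with a ratio of 0.12 (-0.02 to 0.26), and Cstb, an inhibitor of cathepsins, with a sorted ratio of -2.15 and a tumor ratio of 0.58 (-0.12 to 1.31). The list's median was -1.07 in sorted neutrophils and below 0 in other sorted cells too. It was -1.12 in M1 macrophages, -2.20 in M2 macrophages and, over the 4 members tested there, -1.67 in B cells.

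Chemokine RNA was lower in KO cells in both preparations. Cxcl2 (chromosome 5, 90903871 to 90905938, plus strand) was at 57915 CPM in WT sorted, 20821 in KO sorted, 47769 in WT tumor and 10091 in KO tumor cells. The sorted ratio was -2.01 (-2.06 to -1.95) and the tumor ratio -2.70 (-2.90 to -2.51). Both WT libraries lay above both KO libraries, and the intervals did not overlap. Cxcl3, whose upstream region shares the first marked stretch with that of Cxcl2, was at 13246, 2092, 11030 and 470 CPM, with ratios of -3.19 (-3.37 to -3.02) and -5.01 (-6.02 to -4.16). The KO tumor value rests on 11 UMIs.

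Ccl3 and Ccl4, chemokines that attract monocytes and T cells and lie side by side on chromosome 11, followed the same order. Ccl3 was at 15305, 5934, 14515 and 3549 CPM, with ratios of -1.90 and -2.49, and Ccl4 at 19307, 7883, 19783 and 3506 CPM, with ratios of -1.82 and -2.96. Of 15 listed chemokines 7 were tested in the sorted libraries, 6 were at least 2-fold lower and 0 higher, beside 18.5% and 13.5% of all tested genes. Their median ratio was -1.82, where that of all tested genes is 0 by construction. The exception was Ccl9 with -0.46 (-1.20 to 0.21), which was at 0.07 scaled by total UMIs, and for which 1 cell held 85.0% of the 20 KO UMIs. Scaled by total UMIs, 4 of the 7 were at least 2-fold lower and 0 higher, beside 8.30% and 31.0% of all tested genes, and the median was -1.29. All 5 chemokines tested in the tumor libraries were at least 2-fold lower, with a median of -2.70, beside 21.7% of the 263 genes tested there.

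Macrophages of the same sorted libraries gave both like and unlike values. In sorted M2 macrophages Cxcl2 had a ratio of -2.96 and Cxcl3 of -5.27, and in sorted M1 macrophages of -0.62 and -1.58. Over the same 7 chemokines the median was -1.16 in M2 macrophages, -0.29 in M1 macrophages and -0.20 in B cells, and in M1 macrophages 1 was at least 2-fold lower and 3 were higher, beside 9.62% and 8.06% of all genes tested in those cells. These values share the 2 libraries with those of the neutrophils, and differences between cell types were not tested. Among neutrophils, M1 and M2 macrophages and B cells, neutrophils had the highest level of Cxcl2, Cxcl3 and Ccl4 in each genotype. The KO sorted basophil-marker cells, kept apart from these types, stood higher for Ccl4. Further cell types were not compared. For Cxcl2 the next were M2 macrophages, with 6166 CPM in WT and 1040 CPM in KO.

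**Figure D2:**
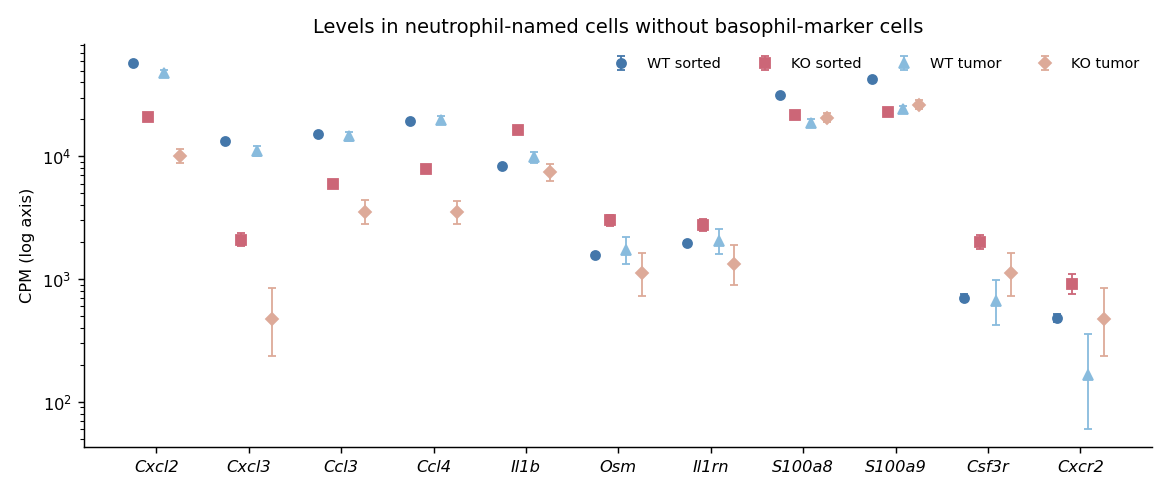
Level of 11 genes (CPM, log axis) in neutrophil-named cells without basophil-marker cells, 1 point per library with its 95% Poisson interval, which covers counting error only. Cxcl2, Cxcl3, Ccl3 and Ccl4 are lower in both KO libraries than in both WT libraries, while Il1b and Osm are highest in KO sorted and lowest in KO tumor cells.

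In the sorted libraries the inflammatory cytokines did not follow the chemokines. Il1b (chromosome 2, 129364570 to 129371139, minus strand) was at 8362 CPM in WT sorted and 16385 in KO sorted, and at 9823 in WT tumor and 7397 in KO tumor cells. The sorted ratio was 0.44 (0.37 to 0.51) and the tumor ratio -0.87 (-1.14 to -0.60), so the direction was opposite. Osm behaved alike, at 1563, 3019, 1729 and 1112 CPM, with ratios of 0.42 and -1.10. Il1rn, the natural antagonist of the interleukin 1 receptor, had -0.03 (-0.20 to 0.13), or 0.50 by total UMIs, and -1.07, and Il1r2, a decoy receptor for interleukin 1, 0.80 (0.63 to 0.96) and -1.31 (-2.23 to -0.46). Of 7 tested cytokines 0 were at least 2-fold higher and 1 lower, beside 13.5% and 18.5% of all tested genes. The lower one was Il1a (-1.09), on 9 KO UMIs of which 1 cell held 44.4%. The median of the 7 was 0.11. Scaled by total UMIs, 1 of the 7 was at least 2-fold higher and 0 lower, beside 31.0% and 8.30% of all tested genes, and their median was 0.64. The 3 of them tested in the tumor libraries all had ratios below 0, and their median was -1.07. At least 2-fold lower were 2, beside 21.7% of all genes tested there.

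Between single cells the libraries overlapped. Cxcl2 took a median of 534 of every 10000 UMIs in WT sorted cells and 87.8 in KO sorted cells, and 6 of 69 KO cells (8.70%) lay above the WT median. For Cxcl3 the medians were 49.7 and 0, with 9 of 69 KO cells above the WT median. For Il1b they were 51.3 and 158, and 53 of 69 KO cells (76.8%) lay above the WT median. Without the highest cell of each library the ratio was -1.99 for Cxcl2, -3.31 for Cxcl3 and 0.55 for Il1b.

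**Figure D3:**
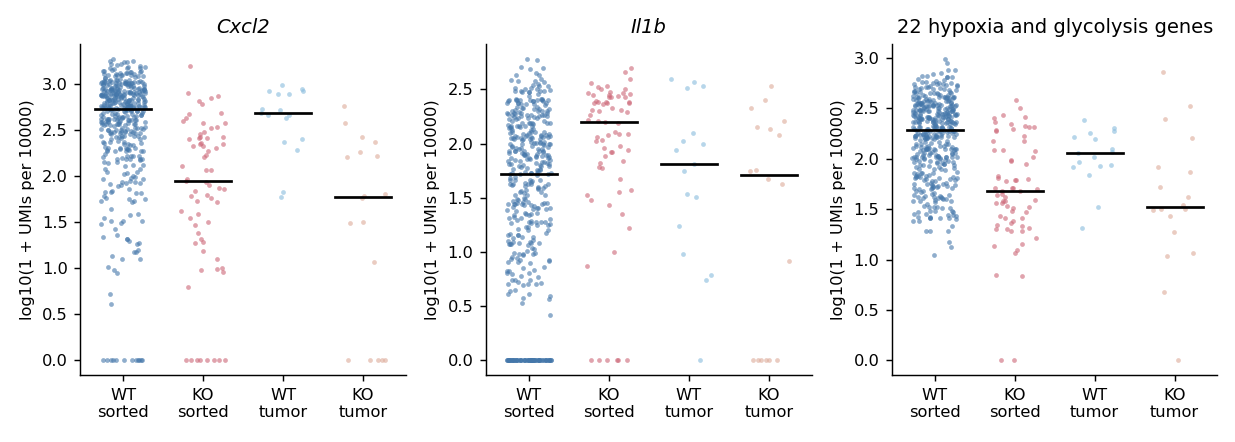
UMIs of Cxcl2, Il1b and 22 hypoxia and glycolysis genes together, as log10(1 + UMIs per 10000 UMIs of the cell), 1 point per cell, with the median as a line, in the 4 libraries without basophil-marker cells. The KO sorted medians lie below those of WT sorted for Cxcl2 (87.8 and 534 per 10000) and the hypoxia and glycolysis genes (46.8 and 191) and above for Il1b (158 and 51.3).

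Hypoxia and glycolysis genes were lower in KO sorted cells as a group. All 21 tested of 22 listed members had ratios below 0, 17 were at least 2-fold lower and 0 higher, and the median was -1.46. Of all tested genes 18.5% were lower and 13.5% higher, or 8.30% and 31.0% by total UMIs. Scaled by total UMIs, 19 of 21 were below 0, Vegfa and Gpi1 turned to above 0, 10 were at least 2-fold lower and the median was -0.93. Along glycolysis the ratios were -1.11 and -0.68 for the glucose transporters Slc2a1 and Slc2a3, -1.43 for hexokinase Hk2, -0.45 for Gpi1, -1.07 for phosphofructokinase Pfkp, -1.94 for aldolase Aldoa, -2.11 for Tpi1, -1.42 for Pgk1, -1.54 for Pgam1, -1.83 for enolase Eno1 and -1.69 for pyruvate kinase Pkm. Hilpda, a hypoxia-induced inhibitor of fat breakdown in lipid droplets, was at 4555 CPM in WT sorted, 1038 in KO sorted, 1893 in WT tumor and 1026 in KO tumor cells, with ratios of -2.66 (-2.93 to -2.42) and -1.34 (-2.08 to -0.65). Gapdh, often used as a reference gene, was at 3252, 776, 2058 and 1240 CPM, with ratios of -2.60 (-2.90 to -2.31) and -1.19. Ldha, whose upstream region is shown above, was at 1753, 507, 686 and 470 CPM, with a sorted ratio of -2.32 (-2.70 to -1.96) and a tumor interval of -2.17 to 0.07. WT sorted cells stood above the other 3 libraries for each of these genes. Vegfa, the angiogenic factor, had the ratio nearest 0, at -0.27 (-0.79 to 0.21).

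Of the 7 members tested in the tumor libraries all 7 were below 0 and 5 at least 2-fold lower, with a median of -1.08, beside the 21.7% lower among all genes tested there. In the sorted libraries most members were below 0 in other cells too. In M2 macrophages 17 of 21 members were at least 2-fold lower with a median of -1.59, in M1 macrophages 14 of 21 with -1.27, and in B cells 9 of 19 with -0.87. Of all genes tested in these cells, 9.33%, 9.62% and 15.8% were at least 2-fold lower. Per neutrophil, the 22 genes took a median of 191 of every 10000 UMIs in WT sorted and 46.8 in KO sorted cells, and 12 of 69 KO cells (17.4%) lay above the WT median. With cells thinned to 500 UMIs each, the list's median ratio was -1.55, over the members still tested there.

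**Figure D4:**
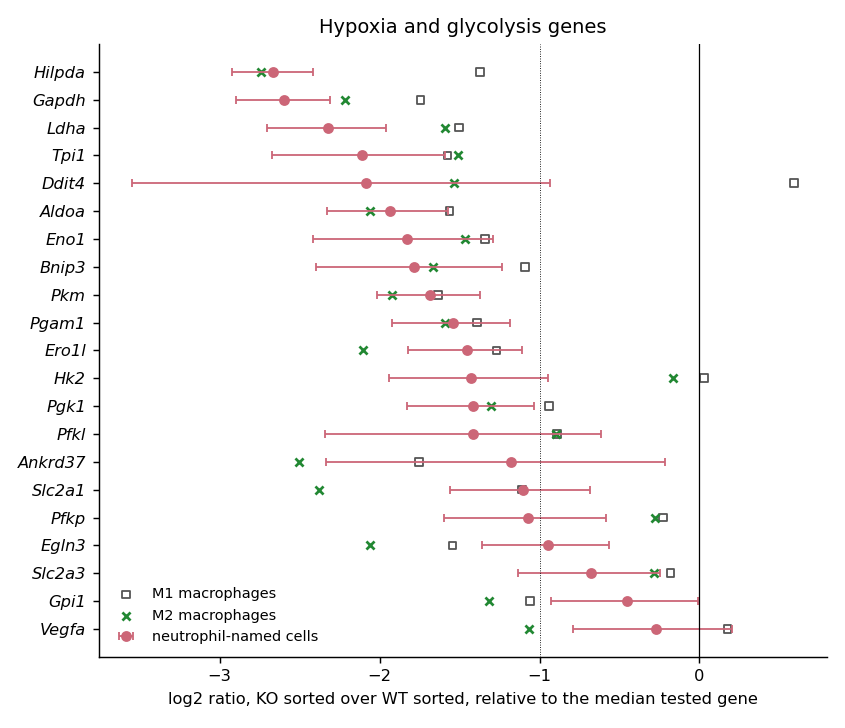
Log2 ratio KO sorted over WT sorted, relative to the median tested gene, of the 21 tested hypoxia and glycolysis genes in neutrophil-named cells without basophil-marker cells (circles with 95% counting intervals), with the values in M1 macrophages (squares) and M2 macrophages (crosses). All 21 circles lie below 0, from -2.66 for Hilpda to -0.27 for Vegfa. At or below -1 (dotted line) lie 17, beside 18.5% of all tested genes.

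A list of genes linked to tumor-associated neutrophils overlapped with this one and was mostly lower as well. Of 13 tested members 7 were at least 2-fold lower and 0 higher, with a median of -1.18. Scaled by total UMIs the numbers were 5 and 1. Of all tested genes 18.5% were lower and 13.5% higher, or 8.30% and 31.0% by total UMIs. With cells thinned to 500 UMIs the list's median was -0.48, over the members still tested there. In sorted M2 macrophages 8 of 13 members were at least 2-fold lower with a median of -1.28. In M1 macrophages 2 of 13 were, with -0.34, and in B cells 4 of 11, with -0.81. Of all genes tested in these cells, 9.33%, 9.62% and 15.8% were at least 2-fold lower. Plin2, which coats lipid droplets, was at 1534 CPM in WT sorted, 325 in KO sorted, 1125 in WT tumor and 299 in KO tumor cells, with ratios of -2.77 (-3.25 to -2.33) and -2.37. Nfe2l2, the antioxidant transcription factor NRF2, stood at the other end with 0.89 (0.57 to 1.21). Hilpda and Vegfa belong to this list and to the hypoxia list, so the lists are not independent. Of 8 tested genes linked to suppressive neutrophils, 1 was at least 2-fold lower, Wfdc17, at 5242, 2060, 2771 and 428 CPM in the 4 libraries (-1.88 sorted, -3.16 tumor). The enzyme genes Ptgs2 (cyclooxygenase 2) and Acod1 (itaconate synthesis) had sorted ratios of 0.37 and 0.44 and tumor ratios of -0.58 and -0.86.

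Secondary and tertiary granule genes were mixed. Of 7 tested members 4 were at least 2-fold lower and 0 higher, with a median of -1.17. Scaled by total UMIs, 3 were lower and 2 higher. Of all tested genes 18.5% were lower and 13.5% higher, or 8.30% and 31.0% by total UMIs. Without cells holding at least 3 genes of another cell type the list's median was -0.28, over the members still tested there. Lcn2, an iron-binding defense protein, was at 839 CPM in WT sorted, 325 in KO sorted, 604 in WT tumor and 727 in KO tumor cells, with a sorted ratio of -1.90 (-2.39 to -1.45) and a tumor ratio of -0.19 (-1.20 to 0.79). Slpi, an inhibitor of neutrophil elastase, had -1.17 (-1.39 to -0.96) and -2.08, and Mmp9, a gelatinase of tertiary granules, 0.83 (0.51 to 1.14) and 0.07. The lowest value of the list, Ngp, came from 1 cell: it held 99.3% of the 769 UMIs in WT sorted cells. The 4 hemoglobin genes tested were lowest of all genes for a like reason, since 1 WT sorted cell held 98.9% of the 5884 UMIs of Hbb-bs and 99.1% of those of Hba-a1, Hba-a2 and Hbb-bt. KO sorted cells had 0 UMIs of these genes.

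Chemokine receptor and adhesion genes lay mostly above 0, in 7 of 9 tested. Of these 9, 2 were at least 2-fold higher and 0 lower, beside 13.5% and 18.5% of all tested genes, with a median of 0.84. Scaled by total UMIs 6 were higher, beside 31.0% of all tested genes. Itgal, the alpha chain of the integrin LFA-1, was at 57.7 CPM in WT sorted and 459 in KO sorted, a ratio of 2.46 (1.95 to 2.97), and at 0 and 171 CPM in the tumor libraries, where 4 KO UMIs give no firm value. Cxcr4, the receptor that holds neutrophils in the bone marrow, was the other one, at 168, 982, 54.9 and 257 CPM, with a sorted ratio of 2.02 (1.69 to 2.34). For Itgal 7.28 UMIs were expected in KO at the WT level, under the minimum of 10, so it was tested only because of its KO level. The hyaluronan receptor Cd44 had 0.84 (0.67 to 1.00) and the integrin chain Itgam -0.29 (-0.73 to 0.12), or 0.24 by total UMIs. Ncf1, a cytosolic subunit of the NADPH oxidase, which makes superoxide, had a sorted ratio of 1.75 (1.25 to 2.23) and a tumor ratio of -1.40 (-3.93 to 0.60), and the median of the 5 tested genes of that oxidase was 0.28. Among 10 tested receptors for growth factors and cytokines 1 was at least 2-fold higher, Il6ra (1.89, 1.10 to 2.64), and 0 lower, a share near that of all tested genes. Il6ra too was tested only because of its KO level.

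Among 11 Fc receptors and inhibitory receptors, 2 were at least 2-fold higher and 2 lower, or 7 and 1 by total UMIs. Of all tested genes 13.5% were higher and 18.5% lower, or 31.0% and 8.30% by total UMIs. Pirb, an inhibitory receptor for MHC class I, had 1.21 (0.69 to 1.69) and the activating IgG receptor Fcgr3 -1.62 (-2.05 to -1.22). Of 11 receptors for microbial and chemoattractant ligands 0 were higher and 2 lower, or 3 and 0 by total UMIs, with Tlr2 at 0.86 (0.27 to 1.41) and the formyl peptide receptor Fpr1 at -1.42 (-2.58 to -0.47). The median of these 11 was -0.43, or 0.10 by total UMIs. Of interferon response genes, 1 of 14 was at least 2-fold higher and 3 were lower, near the shares of all tested genes. Ifitm1 (-1.51) and Ifitm3 (-1.53) were among the lower ones, and the list's median was -0.17. By total UMIs that median was 0.36, with 6 genes higher and 0 lower. The 7 tested granulocyte transcription factors lay between -0.75 (Klf6) and 0.37 (Spi1, which encodes PU.1), none past 2-fold.

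Feedback, survival and stress genes gave values on both sides. Of all genes tested in the sorted libraries 13.5% were higher and 18.5% lower, or 31.0% and 8.30% by total UMIs. With basophil-marker cells the shares were 15.7% and 18.7%. Of 7 NF-kB feedback genes 3 were at least 2-fold lower, among them Ier3 (-1.71, -1.86 to -1.56) and Nfkbia, the inhibitor of NF-kB (-1.26, -1.43 to -1.09), and 0 higher, with Zfp36, which destabilizes cytokine mRNA, at 0.73 (0.60 to 0.86). Their tumor ratios were -1.51, -2.55 and 0.89. By total UMIs 1 gene of this list was higher and 1 lower, with a median of 0.59, and with basophil-marker cells 3 were higher and 2 lower, with a median of 0.82. Of 8 survival genes 1 was higher, Birc3 (1.17, 0.70 to 1.62), and 2 lower, among them Bcl2a1b (-1.20, -1.83 to -0.63), a gene with near-identical copies between which reads can be split, and by total UMIs 1 was higher and 0 lower. Of 14 dissociation stress genes 4 were lower and 0 higher, or 4 and 4 by total UMIs, and with basophil-marker cells 2 were lower and 3 higher. In the tumor libraries 4 of 9 were higher and 0 lower, beside 20.9% and 21.7% of all genes tested there, with a median of 0.65. Hspa1b, a heat shock gene that also has a near-identical copy, had -3.24 (-4.25 to -2.39), and the immediate early gene Fosb 0.99 (0.50 to 1.45). None of the 3 lipid mediator and 4 MHC class II genes tested was past 2-fold. Of 2 cell cycle genes Pcna was higher (1.33, 0.47 to 2.13) on 18 KO UMIs, and was tested only because of its KO level.

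**Figure D5:**
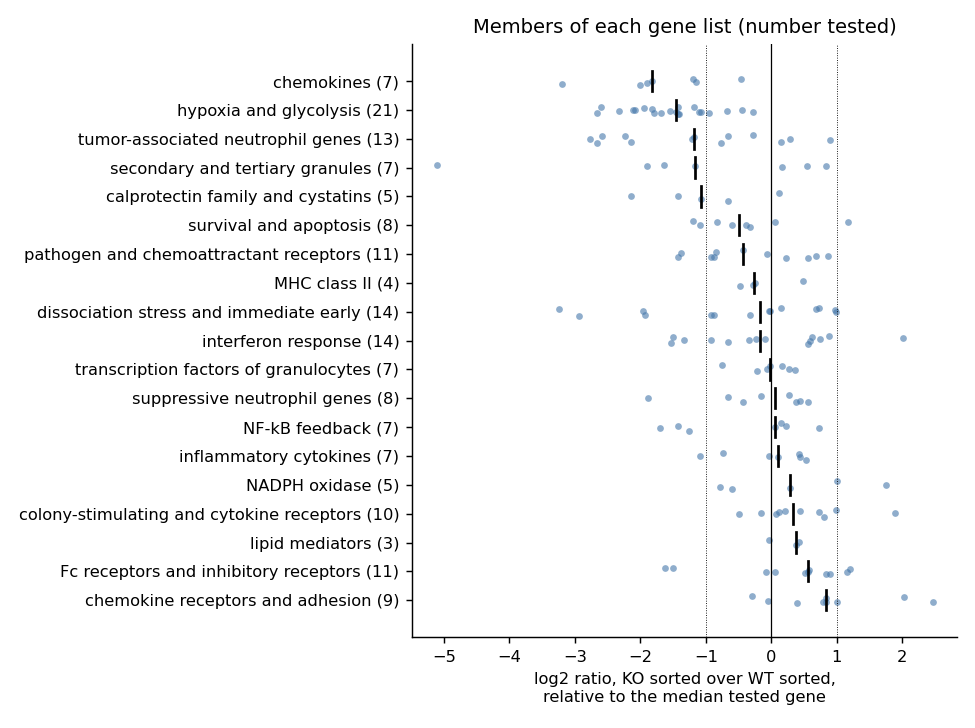
Log2 ratio KO sorted over WT sorted, relative to the median tested gene, in neutrophil-named cells without basophil-marker cells, 1 point per tested gene, for each list with at least 3 tested members, with its median as a line and the 2-fold limits dotted. The chemokine (-1.82) and hypoxia and glycolysis (-1.46) medians lie lowest and that of chemokine receptors and adhesion (0.84) highest.

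Apart from lists, the genes furthest apart were low in level. The 10 largest ratios, from 2.41 for Slc22a15, were those of Slc22a15, Itgal, Nr4a1, Aftph, Ccdc88b, Ppp3ca, Dck, Rnf44, Pik3cd and Gm19951, with 19 to 120 UMIs in KO. At the WT level 9 of these 10, all but Nr4a1, would have had under 10 UMIs in KO, so they were tested only because of their KO level. Nr4a1, an orphan nuclear receptor induced within minutes of stimulation, was at 119 CPM in WT sorted, 951 in KO sorted, 110 in WT tumor and 470 in KO tumor cells, with ratios of 2.47 (2.11 to 2.82) and 1.64 (-0.11 to 3.75). Pik3cd, a leukocyte catalytic subunit of PI3 kinase, was at 28.8 and 285 CPM in the sorted libraries. Besides the hemoglobin genes and Ngp, the lowest were Inhba, Cycs, Prok2, Rab9 and Manf, each with 1 or 2 KO UMIs. Inhba, the subunit of activin A, had 481 UMIs in WT sorted and 1 in KO sorted cells, a ratio of -6.02 whose interval runs from -11.33 to -3.53. In the tumor libraries it had 1 and 5 UMIs, at 27.4 and 214 CPM.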

How the data were processed

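Per the values and the deposited per-cell totals, the matrix holds the natural log of 1 plus a gene's UMIs scaled to 10000 per cell, though the file is called counts by the authors. A second file gives, as deposited, each cell's UMI count, group and cell type. Software listed in the submitters' processing notes, without roles, is Cell Ranger 6.0.1 and Seurat 4.0.5, with the build mm10. How cells were filtered is not given in the sources used here.

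UMIs were recovered by inverting the formula: every one of 60957742 nonzero values came within 0.01 of a whole number, and in all 20376 cells the sum over 19715 genes equalled the deposited total. A barcode was shared with another library by 307 cells, 2 of them neutrophil-named. UMIs were summed over the cells of a library and scaled to their total (CPM). With 1 library per group no test was made. A ratio with 0 UMIs on 1 side was taken against 3 counts as a bound. The ratio step was tested on simulated data. Gene positions are from GENCODE vM21 (GRCm38), matched by symbol.

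The 33 gene lists and the cells were chosen with earlier results of these data known. Named genes were the 4 neutrophil and 5 basophil genes, the 10 highest and 10 lowest ratios without basophil-marker cells, the 10 highest and 5 lowest with all cells, the largest, smallest and up to 2 most abundant of each list, and the CD200 family. Of 343 listed genes, 330 were in the matrix and the others are not analysed here. Values of some genes that the rule names are not reported here. Python was used with numpy 2.4.6, scipy 1.17.1 and pandas 2.3.3.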

Additional observations from a re-analysis of the deposited data

Results flagged for a closer look

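Among the genes named, 8 had opposite directions in the sorted and the tumor libraries, with both counting intervals apart from 0. The difference was not tested, since each library stands alone, and the tumor values rest on 17 WT and 18 KO cells. For Il1b the log2 ratio KO over WT was 0.44 among sorted cells and -0.87 among total tumor cells. For Il1r2 it was 0.80 and -1.31, for Acod1 0.44 and -0.86, and for Ptgs2 0.37 and -0.58. For Osm it was 0.42 and -1.10. For Junb it was 0.97 and -0.36, with a tumor interval reaching to -0.01, and by plain CPM its tumor level was higher in KO (4874) than in WT (4555). Tlr2 had 0.86 in the sorted libraries and at most -1.04 in the tumor libraries, where KO had 0 UMIs against 7 in WT, and Il1a -1.09 and at least 0.92, where WT had 0 UMIs against 5 in KO, all in 1 cell.

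Basophil-marker cells also stood outside the cells named neutrophils. KO sorted held 9 of them among 4218 other cells (0.213%, 0.0976 to 0.405), 4 named hematopoietic stem cells, 3 neuroblastoma cells, 1 migratory dendritic cell and 1 NK cell. WT sorted held 3 among 4787 other cells (0.0627%), KO tumor 3 among 5876 and WT tumor 0 among 4938. Over whole libraries they were 27 of 4305 cells in KO sorted (0.627%, 0.414 to 0.911) and 6 of 5219 in WT sorted (0.115%, 0.0422 to 0.25).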

How the results depend on the processing

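No paired analysis was possible because cells carry the name of a library and not of a sample, so leaving out each replicate and the replicate block were not run. Without basophil-marker cells, the numbers of genes at least 2-fold higher and lower in KO sorted cells (198 and 272) became 456 and 122 scaled by total UMIs, 73 and 90 with cells thinned to 500 UMIs (491 tested), 367 and 452 with at least 5 expected UMIs, 106 and 155 with at least 20, and 1611 and 1368 with no filter. With all cells (320 and 381) they became 664 and 180, 92 and 106, 615 and 611, 160 and 206, and 1653 and 1642 in the same order, and 192 were higher among cells with 2 neutrophil markers. Among those cells Ccl9 turned from 2.31 to -0.45. Fewer genes tested or kept lowers such counts by construction. Scaling by total UMIs leaves out the centering on the median tested gene, at 0.53 without and 0.58 with basophil-marker cells. No sorted basophil-marker cell had 2 neutrophil markers, so cells with 2 were the same 407 WT and 65 KO cells in both comparisons. For the remaining settings the cause was not tested. Without basophil-marker cells, 54 named genes and list medians were past 2-fold. Each was compared only in the settings in which it was still tested, for Cxcl2 12, for Hbb-bs 10 and for Ngp 8. A gene that dropped out of testing thus does not count as changed. In the settings left, 0 of the 54 changed sign and 37 stayed past 2-fold in each. Leaving out each gene's highest cell in each library was chosen after seeing the data.

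The share of basophil-marker cells in KO sorted cells was 10.3% with cells thinned to 500 UMIs. The class was 10.5% of leukocytes in WT sorted, 2.52% in KO sorted, 5.30% in WT tumor and 1.70% in KO tumor. In KO sorted it was 1.60% without basophil-marker cells and 1.51% counting cells with 2 neutrophil markers, and in KO tumor 0.163% counting cells with at least 1000 UMIs. Depth limits the ratios through the shallower library, with 126216 UMIs in KO sorted cells and 23388 in KO tumor cells.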

Other observations

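Within each sorted library the genes varied together from cell to cell in groups. Spearman's rho between S100a8 and S100a9 was 0.92 over 429 WT cells and 0.93 over 69 KO cells. Cxcl2 went with Ccl3 (0.66 and 0.71) and with Cxcl3 (0.65 and 0.60), and Ccl3 with Ccl4 (0.56 and 0.50). Il1b and the hypoxia gene Hilpda ran against each other (-0.48 and -0.49), and so did Il1b and Fth1, the ferritin heavy chain (-0.51 and -0.47). The cells of a library share its preparation, and their depth differs.

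The genes at least 2-fold higher in KO sorted neutrophils spanned more of the genome than those lower. The median span from start to end was 36.6 kb for the 198 higher genes, 6.97 kb for 270 of the 272 lower genes and 19.6 kb for 1461 of the 1470 tested genes.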
